A study of Mus musculus with 14 samples.

Results

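Cd209a and 9 genes that mark or specify conventional dendritic cells were followed in whole mouse lungs on 14 Affymetrix mouse Gene ST arrays. The 10 genes are 10 of the 21212 probe sets measured, 1 probe set per gene. Cd209a was chosen for its fall in lungs without Atxn1l, so its value in that comparison is given as a description with no test. Xcr1, Clec9a, Clec10a, Flt3, Zbtb46, Batf3, Irf4, Irf8 and Ccr7 were added for their known roles in dendritic cells, with earlier results of these data known.

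The lungs came from mice of strain C57BL/6J on postnatal day 6, bred from intercrosses of heterozygotes. Of them, 4 carried Atxn1L -/- and 4 were wild types of the same intercross, and 3 carried Atxn1 -/- with 3 wild types of theirs. No group received a treatment, and both knockouts were of the whole animal as far as the labels say. Each array was given 100 ng of total RNA of whole lung, so that a lower level in a knockout can mean fewer cells of a type or less RNA per cell, which cannot be told apart. Ataxin-1-like and ataxin-1 are related partners of the repressor Capicua, and the comparison asks which lung transcripts change when either is missing.

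Dendritic cells take up antigen and present it to T cells. Conventional dendritic cells grow under the cytokine receptor Flt3 and carry the transcription factor Zbtb46. They fall into a cross-presenting type 1, which depends on Batf3 and Irf8 and carries Xcr1 and Clec9a, and a CD11b-positive type 2, which leans on Irf4 and often carries Clec10a. Cd209a is a mouse relative of the human lectin DC-SIGN and is found on dendritic cells, monocyte-derived ones among them. Once mature, dendritic cells raise Ccr7 and migrate to lymph nodes. In the newborn lung these cells are sparse, so each probe set reads a small share of the RNA.

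In lungs without Atxn1l, Cd209a was 1.49-fold lower, while Xcr1 was 1.39-fold and Irf8 1.22-fold higher, and in these 3 genes the knockout and wild-type arrays did not overlap. Of all probe sets, 2.76% lay wholly above and 2.56% wholly below their wild types. The 250 bases before the start of each are printed here because these members separated the groups. The sequences are RefSeq's in build GRCm38.p6, 5′ to 3′, with capitals marking CG dinucleotides. They come from chr8:3748985-3749234 for Cd209a (minus strand), chr9:123862030-123862279 for Xcr1 (minus strand) and chr8:120736108-120736357 for Irf8 (plus strand).
Cd209a: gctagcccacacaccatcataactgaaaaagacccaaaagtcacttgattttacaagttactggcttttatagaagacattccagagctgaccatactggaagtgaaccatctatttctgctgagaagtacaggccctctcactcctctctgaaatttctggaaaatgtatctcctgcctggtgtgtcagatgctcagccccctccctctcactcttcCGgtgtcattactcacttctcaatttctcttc
Xcr1: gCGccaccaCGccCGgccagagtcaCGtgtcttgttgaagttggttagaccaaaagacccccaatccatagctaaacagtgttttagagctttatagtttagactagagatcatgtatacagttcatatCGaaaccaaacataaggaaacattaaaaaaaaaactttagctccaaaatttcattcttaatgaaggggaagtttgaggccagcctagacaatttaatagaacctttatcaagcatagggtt
Irf8: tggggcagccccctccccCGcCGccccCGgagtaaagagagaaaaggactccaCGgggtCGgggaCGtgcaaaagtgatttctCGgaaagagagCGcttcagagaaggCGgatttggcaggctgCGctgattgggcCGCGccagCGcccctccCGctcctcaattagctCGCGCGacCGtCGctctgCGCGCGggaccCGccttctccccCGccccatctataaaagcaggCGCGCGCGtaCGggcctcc

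The stretch before Cd209a held 1 CG dinucleotide, that before Xcr1 held 5 and that before Irf8 held 29, against a median of 6 over 32851 windows of this length. Of the 10 members, 8 had such a window. Irf8 had 2, and the one not printed here held 8 CG dinucleotides. The letters TGAATGAA and TGAATGGA, which Capicua is known to bind, were searched on both strands and were in none of the 9 windows of members. They are in 1.08% and 1.01% of all windows. The core GAGGAA of the myeloid factor PU.1 was in the windows of Batf3 and Irf4 and is in 23.3% of all windows, and the core of interferon response elements was in no member's window, against 2.98% of all. No match says only that these letters are not in these windows. Cd209a and Irf8 both lie on chromosome 8, as Atxn1l does.

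Arrays were compared within their own set, since the authors normalized the 8 arrays of the Atxn1l knockouts and controls apart from the 6 of the Atxn1 set. Atxn1l itself lay between 6.68 and 7.05 on its knockout arrays and between 9.29 and 9.59 on their wild types. Atxn1 lay between 10.99 and 11.04 on the arrays labelled Atxn1 knockout and between 10.92 and 11.14 on their wild types, so this probe set does not check that genotype. Marker genes of lung epithelium, which check the tissue, had mean log2 levels of 12.90 to 12.97 on the 8 arrays and of 13.41 to 13.53 on the 6. Atxn1l knockout replicate 1 stood apart, with a correlation of 0.994 to its closest array. Its mean level of 8 neutrophil markers was 9.95, against 8.32 to 8.65 on the other knockouts of Atxn1l. Wild type replicate 3 of the Atxn1 set was high in the same markers, at 10.41 against 8.62 and 8.86 on the other wild types of its set. Xist was low, as in males, on replicate 1 of either knockout and on replicates 1 and 2 of both wild-type groups.

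Cd209a, the lectin that opens the group, had log2 levels of 7.08, 7.16, 7.19 and 7.08 on the 4 Atxn1l knockout arrays. The 4 wild-type arrays of that set gave 7.53, 7.70, 7.73 and 7.86. Every knockout array lay below every wild type, and the knockouts were closer to each other than the wild types were. The means were 7.13 ± 0.05 and 7.70 ± 0.14 (SD, n = 4 each), a log2 change of -0.58 (SE 0.07, 95% interval -0.73 to -0.42). Cd209a was chosen by this fall on these same arrays, so the interval is no test and the change may be overstated. Leaving out any 1 array gave -0.63 to -0.52, and a covariate for the Xist level gave -0.61. Cd209a passed limma's adjusted threshold of 0.05 as lower, which is what it was chosen by, as did 0.0189% of all probe sets, with 0.0236% called higher. Without knockout replicate 3 or 4, or without wild type replicate 2 or 3, it did not pass.

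On the arrays labelled Atxn1 knockout Cd209a had 8.10, 7.94 and 8.06, and on their wild types 8.03, 8.41 and 7.97. The groups overlapped, and the highest value was wild type replicate 2. The log2 change was -0.10 (SE 0.12, 95% interval -0.38 to 0.18, limma adjusted p = 1.00), and 0.04 without that wild type. The change in the Atxn1l knockout minus that in the Atxn1 knockout was -0.48 (SE 0.14), given without a test because Cd209a was chosen for the first of these changes.

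**Figure D1:**
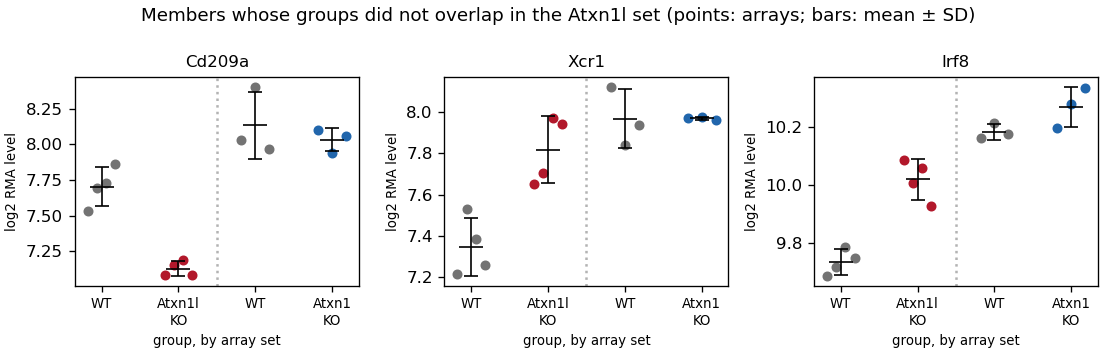
Log2 RMA levels of Cd209a, Xcr1 and Irf8 on every array, with the mean and SD of each of the 4 groups. A dotted line parts the separately normalized sets, and only groups on the same side can be compared. All 4 Atxn1l knockout arrays lie below their wild types for Cd209a (7.08 to 7.19 against 7.53 to 7.86) and above them for Xcr1 and Irf8, and the Atxn1 groups overlap in all 3 genes.

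Relatives and neighbours of Cd209a in the genome had smaller log2 changes than Cd209a in the Atxn1l knockout. The mouse cluster holds the lectins Cd209b to Cd209g, and the lectin Clec4g and the low-affinity IgE receptor Fcer2a lie next to it. There the 6 other Cd209 genes had log2 changes from -0.09 for Cd209c (SE 0.07) and -0.07 for Cd209b (SE 0.07) to 0.02 for Cd209g (SE 0.09), with -0.003 for Cd209d, -0.004 for Cd209e and -0.0001 for Cd209f. Clec4g had -0.09 (SE 0.05) and Fcer2a -0.19 (SE 0.10). In each of these 8 genes the knockout and wild-type arrays overlapped, and none passed over all probe sets (smallest limma adjusted p = 0.629, for Fcer2a). Cd209b to Cd209f and Fcer2a were dim in this set, with wild-type means from 5.16 (Cd209f) to 6.78 (Fcer2a). They lay below 6.93, the limit used for leaving out dim probe sets, where arrays can compress a change. Their small changes therefore do not show that their RNA was unchanged. Cd209g and Clec4g lay above that limit, with wild-type means of 7.03 and 7.54. On the Atxn1 arrays the log2 changes were -0.12 for Cd209c, -0.04 for Cd209b, -0.07 for Cd209f, -0.04 for Cd209e, -0.02 for Cd209d, -0.01 for Cd209g, 0.04 for Clec4g and 0.07 for Fcer2a, none of them called. Because the Cd209 genes are close copies, probes can read more than 1 of them, and their levels are uncertain to that extent.

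Among receptors of type 1 dendritic cells, Xcr1, the receptor for the chemokine Xcl1, had log2 levels of 7.65, 7.71, 7.97 and 7.94 without Atxn1l. Its wild types gave 7.21, 7.53, 7.38 and 7.26. All knockout arrays were higher, the closest pair of values being 7.65 and 7.53. The change was 0.47 (SE 0.09, 95% interval 0.26 to 0.68) and did not pass over all probe sets (limma adjusted p = 0.232, and 0.116 to 0.549 over the 15 alternatives). On the arrays labelled Atxn1 knockout Xcr1 had 7.97, 7.97 and 7.96, inside the range of the wild types at 8.12, 7.84 and 7.94 (change 0.002, SE 0.08, limma adjusted p = 1.00). The changes in the 2 knockouts differed by 0.47 (SE 0.13, 95% interval 0.18 to 0.76, unadjusted p = 0.00356, limma adjusted p = 1.00), which is not a call.

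Clec9a, a receptor of type 1 cells for actin of dead cells, had 7.40, 7.19, 7.19 and 7.65 without Atxn1l. Its wild types gave 7.21, 7.33, 6.88 and 7.20. These groups overlapped, with a change of 0.20 (SE 0.12, limma adjusted p = 0.695) that was 0.11 without knockout replicate 4 or without wild type replicate 3. In the other set Clec9a ranged from 7.41 to 7.74 in the knockouts and from 7.37 to 7.94 in the wild types, a change of -0.01 (SE 0.16). Its mean of 7.63 there lay below 7.82, the limit for dim probe sets in that set.

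Of the factors that specify type 1 cells, Irf8 separated the groups and Batf3 did not. Irf8, which monocytes, macrophages and B cells also express, had 10.08, 10.01, 10.06 and 9.93 without Atxn1l. The wild types gave 9.69, 9.72, 9.79 and 9.75, all lower, and the change was 0.28 (SE 0.05, 95% interval 0.17 to 0.40). It did not pass over all probe sets (limma adjusted p = 0.192, and 0.10 to 0.490 over the 15 alternatives). On the arrays labelled Atxn1 knockout Irf8 had 10.20, 10.28 and 10.33 against 10.16, 10.21 and 10.18. The lowest knockout lay below the highest wild type there, and the change was 0.09 (SE 0.05, limma adjusted p = 1.00). The difference between the 2 changes was 0.20 (SE 0.07, unadjusted p = 0.0152, limma adjusted p = 1.00).

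Markers of other cells that use Irf8 were read beside it in the Atxn1l knockout. Of 12 macrophage genes, 10 had a change above 0, with a median of 0.52. Of the 12, 2 passed as higher, Chil3 and Msr1, as did 0.0236% of all probe sets. The list was chosen with earlier results of these data known, so this count is a description. Without knockout replicate 4, or without wild type replicate 1, 2 or 3, 0 of the 12 passed. Without knockout replicate 1, 4 passed. The mean level of the 12 was 9.06 to 9.61 on the knockout arrays and 8.67 to 8.75 on the wild types. Of 7 monocyte genes, all 7 were above 0 and none was called, with a median of 0.30 and mean levels of 9.65 to 9.88 against 9.32 to 9.54. The 6 B cell genes had a median of 0.07, with overlapping mean levels of 8.36 to 8.82 and 8.36 to 8.64. None of the 6 was called, and leaving out knockout replicate 3 gave a median of -0.01, leaving out knockout replicate 1 one of 0.17. It was 0.02 when wild type replicate 1 was left out. The part of these cells in the result for Irf8 was not tested.

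Batf3, the partner of Irf8 in type 1 cells, had 7.47, 7.63, 7.64 and 7.47 without Atxn1l and 7.38, 7.67, 7.54 and 7.34 in the wild types, which overlap. Its change was 0.07 (SE 0.08, 95% interval -0.10 to 0.25, limma adjusted p = 0.867). The 3 arrays labelled Atxn1 knockout lay between 8.55 and 8.58 and the wild types between 8.34 and 8.71, with a change of 0.03 (SE 0.09).

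Both type 2 members had overlapping groups in the Atxn1l set. Clec10a, a galactose-binding lectin, had 5.82, 5.85, 5.80 and 5.85 without Atxn1l and 5.80, 5.56, 5.77 and 5.73 in the wild types, with a change of 0.12 (SE 0.06, limma adjusted p = 0.629). Irf4, a factor that B cells and activated T cells use as well, had 6.39, 6.52, 6.89 and 6.63 against 6.61, 6.49, 6.63 and 6.61, a change of 0.02 (SE 0.09, limma adjusted p = 0.975). The knockout arrays of Irf4 lay on both sides of its wild types, and its sign changed in 4 of the 14 alternatives. Both genes lay below the 25th percentile of probe-set means in their set, where arrays can compress a change.

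In the Atxn1 set Irf4 was the 1 member whose groups did not overlap. Its knockout arrays gave 7.66, 7.72 and 7.68 and its wild types 7.59, 7.61 and 7.58, a change of 0.09 (SE 0.05, limma adjusted p = 1.00). In that set 2.85% of all probe sets had every knockout array above every wild type, 1.9% had every one below, and 4.75% had no overlap in all. Clec10a lay between 7.18 and 7.31 in those knockouts and between 7.14 and 7.71 in their wild types (change -0.14, SE 0.14), and it was 0.02 without wild type replicate 1.

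The genes shared by conventional dendritic cells had overlapping groups in both sets. Flt3, the receptor of the growth factor Flt3 ligand, had 7.41, 7.38, 7.41 and 7.48 without Atxn1l and 7.32, 7.52, 7.21 and 7.28 in the wild types (change 0.09, SE 0.07, limma adjusted p = 0.780). Zbtb46, a factor of conventional dendritic cells that endothelium expresses as well, had 8.19, 8.28, 8.24 and 8.16 against 8.17, 8.20, 8.18 and 8.16 (change 0.04, SE 0.05, 95% interval -0.06 to 0.14). The 4 endothelial markers had a median change of 0.01, and -0.02 to 0.06 with 1 array left out. Without Atxn1, Flt3 had a change of -0.10 (SE 0.09) and Zbtb46 of 0.02 (SE 0.08).

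Ccr7, the homing receptor of mature dendritic cells and of many T cells, had 8.48, 8.93, 9.02 and 8.97 without Atxn1l and 8.93, 9.11, 9.13 and 9.05 in the wild types. The lowest value was knockout replicate 1. The change was -0.21 (SE 0.11, limma adjusted p = 0.660) and -0.08 without that array. Of 6 T cell genes 4 were below 0, with a median of -0.04, and 0.003 without wild type replicate 3, -0.09 without wild type replicate 1 and -0.02 without wild type replicate 2 or 4. It was -0.03 without knockout replicate 2 or 4. In the other set, where knockouts spread more, Ccr7 ranged from 9.63 to 10.12 in the knockouts and from 9.79 to 9.86 in the wild types, a change of 0.05 (SE 0.12).

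**Figure D2:**
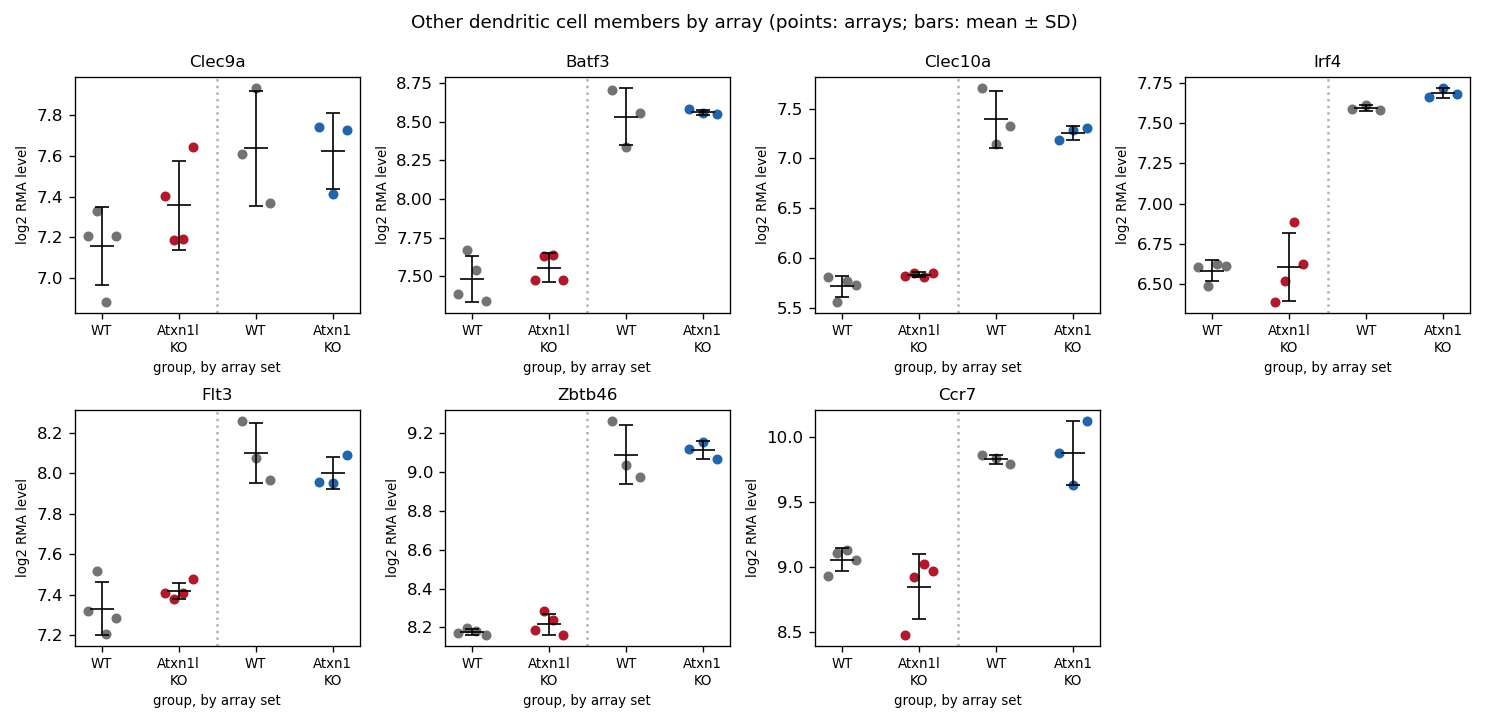
Log2 RMA levels of the other 7 genes on every array, with the mean and SD of each of the 4 groups, and a dotted line between the separately normalized sets. Knockout and wild-type points overlap in every gene of the Atxn1l set, and the low Ccr7 point at 8.48 is Atxn1l knockout replicate 1. In the Atxn1 set Irf4 alone has no overlap (7.66 to 7.72 against 7.58 to 7.61).

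Over the 10 genes together, 8 were on the higher side without Atxn1l, and their median log2 change was 0.08, beside 51.3% of all probe sets above 0 and a median of 0.003. Groups did not overlap in 3 of the 10, where 5.32% of all probe sets had no overlap. Since the members were chosen with results known, these counts are a description. Of the 9 genes other than Cd209a, limma called 0 at an adjusted p under 0.05 (0.0424% of all probe sets were called in either direction), and Xcr1 and Irf8 had an unadjusted p under 0.05, as did 8.5% of all. Without Atxn1, 6 of the 10 were above 0, where 47.3% of all probe sets were, and their median was 0.01. That median was -0.03 with knockout replicate 3 left out, -0.02 without wild type replicate 3 and 0.07 without wild type replicate 1. Without wild type replicate 4 of the Atxn1l set the median there was 0.05. Of the 10 in the Atxn1 knockout 0 were called, as were 0 of all probe sets (0%), and 0 had an unadjusted p under 0.05, against 1.22% of all. The difference between the knockouts was called for 0 of the 9, and for 2 of all probe sets (0.00943%). Of all, 3.24% had an unadjusted p under 0.05 for that difference, as Xcr1 and Irf8 did.

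**Figure D3:**
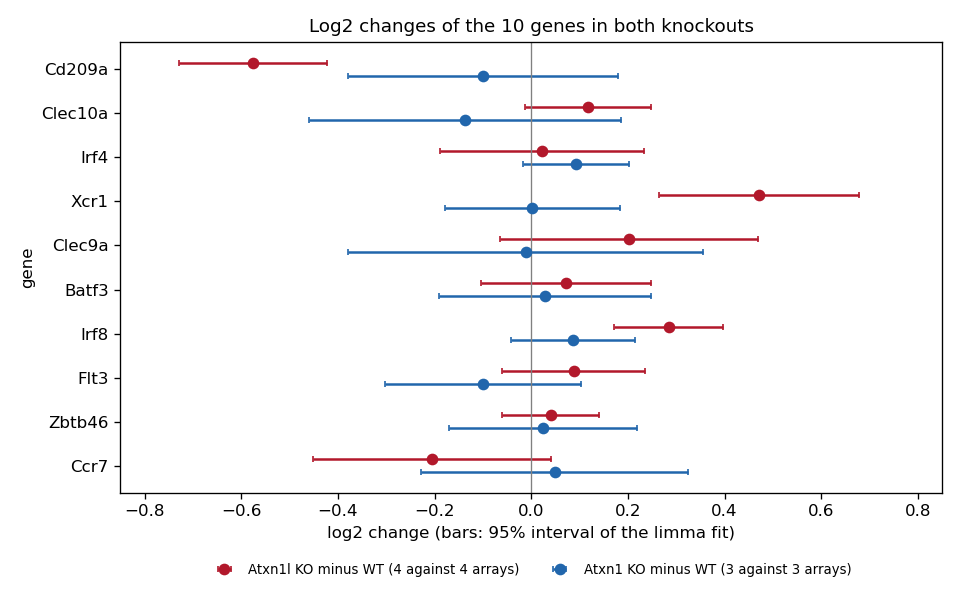
Log2 changes of the 10 genes, knockout minus wild type, with 95% intervals of the limma fit, in the Atxn1l set (4 against 4 arrays) and the Atxn1 set (3 against 3 arrays). Cd209a at -0.58 lies left of 0 and Xcr1 at 0.47 and Irf8 at 0.28 lie right of it in the Atxn1l set, while all 10 intervals of the Atxn1 set include 0. The intervals are not adjusted for the number of probe sets. That of Cd209a in the Atxn1l set is no test, since the gene was chosen by its change there.

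Other genes of the same cells were read through lists. Apart from Cd209a, which was chosen by its call in the Atxn1l knockout, none of their genes passed over all probe sets in either knockout. Of all probe sets, 0.0424% were called in the Atxn1l knockout and 0% in the Atxn1 knockout. Of 14 measured genes of type 1 cells, Xcr1, Clec9a, Batf3 and Irf8 included, 11 were above 0 without Atxn1l, with a median of 0.09, and 0.16 without wild type replicate 2. Rab7b, a GTPase of late endosomes, had 0.34 (SE 0.09), and Naaa, a lysosomal amidase, had 0.17 (SE 0.06) with no overlap of groups. Without Atxn1, 8 of the 14 were above 0, with a median of 0.02 that lay between -0.02 (without wild type replicate 1) and 0.06 (without wild type replicate 2), and Ly75, an uptake receptor, had 0.11 (SE 0.05).

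Of 13 genes of type 2 cells, 12 were above 0 without Atxn1l, with a median of 0.12, and Cd209a was the 1 below. The integrin Itgam (CD11b) had 0.83 (SE 0.23), the receptor subunit Csf2rb 0.47 (SE 0.16) and the inhibitory receptor Sirpa 0.21 (SE 0.08). Neutrophils and macrophages also express these 3. The 8 neutrophil markers had a median of 0.99, and 0.42 without knockout replicate 1, and their part in these values was not tested. The type 2 list kept a median of 0.13 without that array. Without Atxn1, 8 of 13 were above 0, with a median of 0.04 that lay between 0.01 (knockout replicate 2 left out) and 0.07 (without wild type replicate 3).

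Of 14 development and growth factor genes, 12 were above 0 without Atxn1l, with a median of 0.10. Groups did not overlap in 5, all higher, beside 2.76% of all probe sets. The factors Spi1, which encodes PU.1 (0.39, SE 0.11), Runx3 (0.35, SE 0.08) and Ikzf1 (0.28, SE 0.07) and the receptor subunit Csf2ra (0.25, SE 0.08) serve other white cells too. The same list without Atxn1 had 8 of 14 above 0, with a median of 0.02 that lay between -0.001 (without wild type replicate 2) and 0.05 (without wild type replicate 3). Flt3l, the ligand of Flt3, had 0.11 (SE 0.05).

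Genes of maturation and migration pointed both ways without Atxn1l: 10 of 15 were above 0 and 5 below, with a median of 0.07. The costimulators Cd86 (0.35, SE 0.10) and Cd80 (0.29, SE 0.10) lay above all wild types. The chemokine Ccl22 (-0.22, SE 0.08) and the signalling inhibitor Socs2 (-0.19, SE 0.05) lay below all of them, and Ccr7 at -0.21 overlapped. Socs2 was bright for a gene of sparse cells, with a wild-type mean of 12.56 against 8.51 over the list. Which cells its RNA came from was not tested. No gene of this list passed over all probe sets (smallest limma adjusted p = 0.326, for Socs2). On the Atxn1 side 10 of 15 were above 0, with a median of 0.04, against 6 of 15 and -0.01 when knockout replicate 3 was left out and 0.02 without wild type replicate 3. There Cd274, an inhibitory ligand of T cells, had 0.26 (SE 0.08).

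MHC class II genes, which load and show peptide antigen, were above 0 in 10 of 11 in either knockout. The medians were 0.09 without Atxn1l and 0.05 without Atxn1, and the latter was -0.003, with 5 of 11 above 0, when wild type replicate 3 of that set was left out. With other arrays left out it was 0.05 to 0.13, highest without wild type replicate 2, and the median without Atxn1l was 0.06 (without wild type replicate 1 or knockout replicate 4) to 0.15 (without knockout replicate 1). Without Atxn1l the class II regulator Ciita had 0.20 (SE 0.08), the chain H2-Ab1 0.26 (SE 0.11) and the protease Ctss 0.35 (SE 0.17), all with overlapping groups and none called. In the Atxn1 knockout Ciita had 0.09 (SE 0.06) and Ctss 0.15 (SE 0.13).

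**Figure D4:**
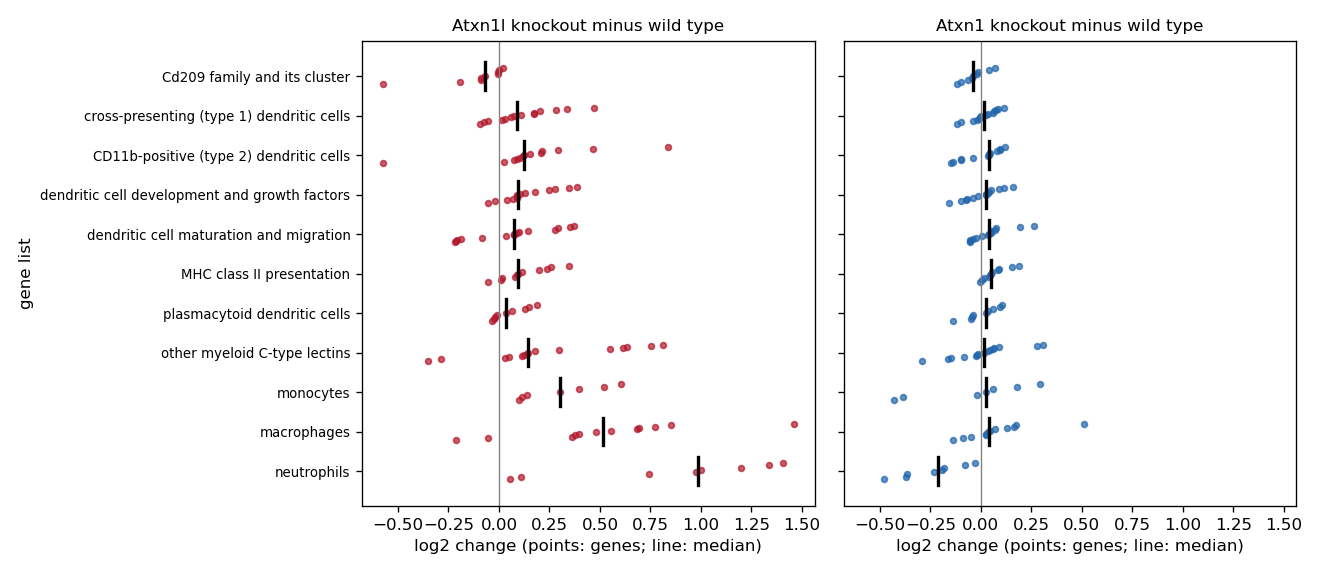
Log2 changes, knockout minus wild type, of single genes (points) in 11 lists, with the median of each list as a line, in the Atxn1l set on the left and the Atxn1 set on the right. On the left Cd209a at -0.58 is the lowest point of both lists that hold it, while medians of the dendritic cell and class II lists lie between 0.04 and 0.12 and those of macrophages and neutrophils at 0.52 and 0.99. On the right the medians of the dendritic cell and class II lists lie between 0.02 and 0.05.

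The genes whose levels ran most like those of Cd209a were ranked by Pearson's r over the 14 arrays, after subtracting the mean of each set. The 5 highest were St3gal6, a sialyltransferase (0.91), Angpt1, a ligand of the Tie2 receptor (0.91), Gm5277 (0.90), Orc3, of the replication origin complex (0.90), and Zfp799 (0.88). Among the lowest were Entpd3, a nucleotide-splitting enzyme (-0.91), the ion channel Trpv4 (-0.89), Hal (-0.88) and Manbal (-0.88). None of these is a dendritic cell gene of the lists. With the group mean subtracted instead, Angpt1 had 0.81 and Entpd3 -0.84, while Hal had -0.42 and Orc3 0.54. Of the members, Xcr1 had -0.78 and Irf8 -0.76 over the sets, and -0.16 and 0.29 within groups, and Ccr7 had 0.51 and 0.31. The arrays of a set share their normalization, and these values are a description.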

How the data were processed

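Total RNA of 14 lungs was hybridised to 14 arrays. The deposited values are log2 RMA levels of 1 probe set per Entrez gene, made by the authors with RMA separately for the 8 and the 6 arrays, per the series' design text. The submitters' processing notes also name limma. Which probe set definition they used is not stated in the sources used here. Probe sets were named by Entrez number through RefSeq (GRCm38.p6). Of 155 entries in the gene lists 152 were measured, and Wdfy4, Ccl19 and Ly6c2 were not matched.

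Knockouts were set against the wild types of their set by limma 3.58.1 in R 4.3.3 (lmFit, eBayes, no covariate, two-sided) on all 21212 probe sets, with Benjamini-Hochberg adjustment over all of them and calls at an adjusted p under 0.05. The difference between knockouts was a contrast in 1 fit of all 14 arrays. Intervals use the moderated SE. Mean estimates of the fit were checked on simulated data with independent normal noise. That does not test the calls made on these arrays. Members and lists were chosen with earlier results of these data known. Named genes were the members, the Cd209 list, in other lists up to 4 genes of smallest p, of which the text gives some, and the 5 most and 5 least like Cd209a, of which 1 is not reported here. Alternatives were a replicate term, an eBayes fit with trend and robust prior, weights per array, leaving out dim probe sets, joint normalization, median centring, an Xist covariate and leaving out each array. The labels do not say that the mice of a group came from separate litters, and p-values measure the spread between these samples. The number of arrays limits precision.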

Additional observations from a re-analysis of the deposited data

Results flagged for a closer look

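Irf4 on wild type replicate 2 of the Atxn1l set had a log2 level of 6.49, and the nearest of the other 3 wild types had 6.61, a gap of 0.867 of the group's range, above the critical value of 0.829. It was the 1 such case in 20 groups of 4 arrays examined, and chance alone gives about 1 in 20. Without that array Irf4 had a log2 change of -0.01, against 0.02 with it. Ccr7 on Atxn1l knockout replicate 1 came close at 0.818 of the range.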

How the results depend on the processing

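Cd209a kept its sign in all 15 alternatives of the Atxn1l comparison, between -0.63 and -0.52. Every knockout array lay below every wild type, so leaving out 1 array could not change that sign. The replicate term, the trend and robust prior and leaving out dim probe sets do not alter the estimate. The kept sign is therefore a description. Among the fits with 1 array left out, its call was lost without knockout replicate 3 or 4 or wild type replicate 2 or 3. Whether Cd209a passed in the other alternatives is not reported here. None of the 9 other members was called in any of their 133 alternative fits there, of which 129 kept the sign of the change, and the 4 that did not were of Irf4. In the Atxn1 comparison 0 of 127 were called and 111 kept the sign. The probe sets called over the whole array changed more: from 9 in the Atxn1l set to between 2 and 25 with 1 array left out, from 0 in the Atxn1 set to 1 with array weights, and from 2 to 4 for the difference between knockouts with array weights. With the replicate number as a block 2 were called in the Atxn1l set and 0 in the Atxn1 set, and Cd209a had -0.58 (SE 0.06). Deviations of arrays with the same number correlated at 0.04 to 0.38 among the Atxn1l pairs and at -0.42 to 0.42 among the Atxn1 pairs. Pairs with different numbers gave -0.24 to 0.25 and -0.37 to 0.37. Whether arrays with the same number share more than that number was not tested. The causes were not tested.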

Other observations

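Of 4 NK cell genes all 4 were above 0 without Atxn1l, with 0.71 for the granzyme Gzma (SE 0.24, limma adjusted p = 0.482) and 0.35 for the receptor Ncr1 (SE 0.15), neither called, and 0.01 for Klrb1c. Without knockout replicate 4, 2 of the 4 were above 0. The 9 genes of plasmacytoid dendritic cells, the interferon-producing kind, had a median of 0.04 without Atxn1l, with 5 of 9 above 0, and of 0.02 without Atxn1. Without wild type replicate 1 of the Atxn1l set the first was -0.01, with 4 of 9 above 0, and without wild type replicate 3 of the Atxn1 set the second was -0.001. All 6 T cell genes were above 0 on the arrays labelled Atxn1 knockout, with a median of 0.13, 0.30 for Cd3g (SE 0.12) and 0.18 for Cd3e (SE 0.07), none called. That median was 0.04 without wild type replicate 3.

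Among 15 other lectins of myeloid cells, 13 were above 0 without Atxn1l, with a median of 0.14, and 0.07 without knockout replicate 1. Clec4a2 had 0.63 (SE 0.18) and Clec5a 0.75 (SE 0.29). Clec1a, a lectin also found on endothelium, had -0.35 (SE 0.07, limma adjusted p = 0.251), with all 4 knockout arrays below all wild types. Without Atxn1, 8 of the 15 were above 0, with a median of 0.02 that was -0.09 without wild type replicate 1 and 0.14 without wild type replicate 3.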
